A study of Danio rerio with 16 samples.

Results

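Collagen genes encode the alpha chains of the triple-helical proteins that form most of the fibrous matrix of the body. Genes were taken as collagen genes when their Ensembl identifier carried a symbol of the form colNaN and when they reached 1 CPM (reads scaled to a fixed total over annotated genes, counts per 1e+06) in at least 4 libraries. The name table held 57 such identifiers, 56 of them were present in the files, and all 56 passed the level rule and the filter of the test, of 32105 genes in the files and 21372 tested. They carried 1.56% to 2.31% of the gene counts of a library.

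The libraries came from whole zebrafish larvae, aged 5 days post-fertilization, that had been exposed from 4 to 120 h after fertilization. The 4 groups, of 4 libraries each, received PCB153 at 0.1, 1 or 10 µM, or the solvent alone as control (0.1% DMSO). PCB153, a polychlorinated biphenyl that persists in the environment, does not act like dioxin. The labels describe the libraries as biological replicates and give no strain, clutch, batch or number of larvae per library, so the p-values measure the spread between these libraries.

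Each collagen molecule is built from alpha chains that are modified and folded in the endoplasmic reticulum, secreted, trimmed by proteases and, in the fibrillar types, crosslinked by lysyl oxidases. Fibrillar types I and V make the fibrils of skin, tendon and bone. Types II, IX, X and XI belong to cartilage and, apart from type X, in fish larvae also to the notochord sheath. Type IV forms the network of basement membranes, and types VII and XVII anchor the epidermis to the tissue beneath. In a larva of this age much of the collagen is made by skin, fin folds, the craniofacial cartilages, the notochord and the earliest bone.

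Sums over gene counts ranged from 8069225 to 15531744 per library, the lowest in 1 µM replicate 1. Reads placed in no counted gene made up 31.4% to 35.5% of the uniquely aligned reads in DMSO, 36.2% to 38.6% at 0.1 µM, 35.1% to 40.4% at 1 µM and 31.7% to 33.3% at 10 µM. Replicates 2 and 3 of 0.1 µM and replicate 1 of 1 µM stood apart, the first on principal components, the second by its share of reads not uniquely aligned (57.7%) and the third by its depth. That share was 26.9% to 33.5% in DMSO, 28.1% to 57.7% at 0.1 µM, 31.3% to 40.7% at 1 µM and 36.6% to 41.5% at 10 µM. Every 10 µM library was thus above every DMSO library. The share not uniquely aligned was not used as a covariate, and its part in the results was not tested. Markers of the larval tissues that make collagen were detected, apart from the bone gene bglap, which had no count in any library. In RNA of whole larvae, fewer cells of a type and less collagen RNA per cell cannot be told apart. Of the 56 symbols 22 are written as for human genes, and 10 members share their symbol with another identifier, which is then printed. Reads that aligned in more than 1 place were counted for no gene, so near-identical duplicates may be undercounted. No gene lengths were used, so levels are compared between groups and not between genes.

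The collagen genes as a set were lower at 10 µM. Their summed level was 21260, 21950, 21230 and 21490 CPM in the DMSO libraries, 19450, 23060, 21970 and 18850 CPM at 0.1 µM, 16790, 19590, 19160 and 18770 CPM at 1 µM, and 15950, 15970, 18150 and 17860 CPM at 10 µM. All libraries of 1 and 10 µM lay below all DMSO libraries. At 0.1 µM, replicates 1 and 4 lay below the DMSO range and replicates 2 and 3 above its top. The group means were 21480 ± 332 CPM in DMSO, 20830 ± 2004 at 0.1 µM, 18570 ± 1238 at 1 µM and 16980 ± 1189 at 10 µM (SD, n = 4), which is 3.03%, 13.5% and 20.95% below DMSO. The spread between the 0.1 µM libraries was thus several times that of DMSO. Type I (3 genes) and type II (2 genes) held 8088 and 3710 CPM of the DMSO mean, so these genes weigh most in the sum.

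**Figure D1:**
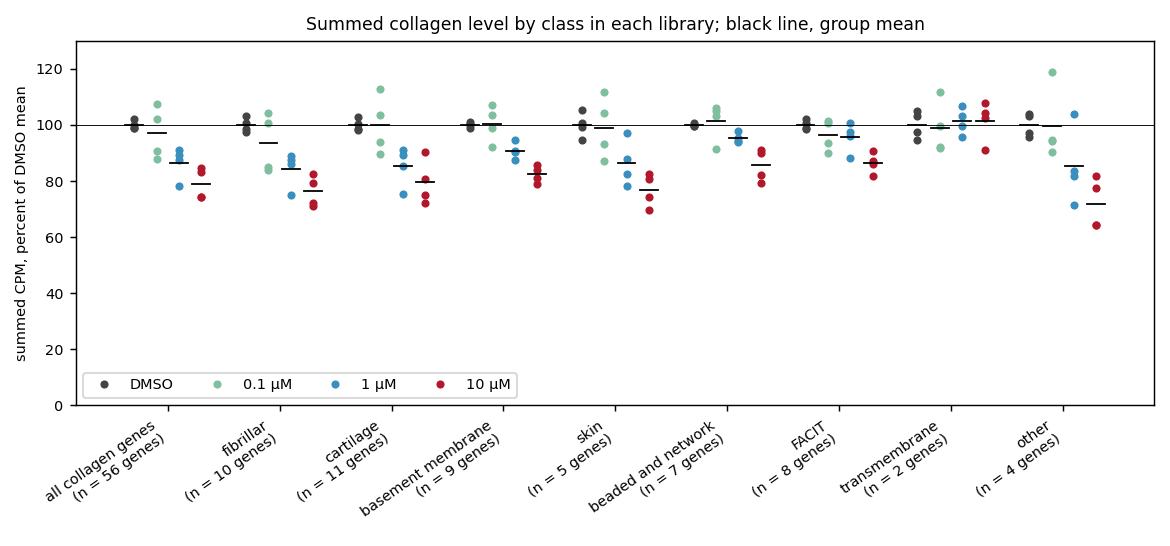
Summed CPM of the collagen genes of each class in each library, as percent of the DMSO mean (vertical axis, from 0), with colours for the 4 groups and a black line at each group mean. For all 56 genes the 1 and 10 µM points lie below every DMSO point, the 0.1 µM points spread to both sides of DMSO, and the transmembrane class (2 genes) stays at the DMSO level in every group.

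Gene by gene, 1 collagen gene fell at 0.1 µM, 12 fell at 1 µM and 33 fell at 10 µM against DMSO (edgeR quasi-likelihood test, Benjamini-Hochberg adjusted p under 0.05). Of all genes tested, 1.14%, 5.27% and 8.45% fell in the same comparisons. At 10 µM 2 collagen genes rose, COL8A1 and col19a1 ENSDARG00000076163, against 9.9% of all genes. No collagen gene rose at 0.1 µM (1 at an unadjusted p under 0.05, 0 by DESeq2; 2.3% of all genes rose) or at 1 µM (2 unadjusted, 0 by DESeq2; 7.13% of all genes rose). The 3 comparisons share the DMSO libraries and are not independent of each other. Most members have high counts, so the share was also read among the 12598 genes of at least 10 CPM: 9.27% of these fell at 10 µM, against 30 of the 47 members at that level. That floor does not match the members by level, as some lie far above it (col1a1a at 3866 CPM in DMSO). The part of level in the share of members called was not tested.

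All 4 libraries lay below all 4 of DMSO for 2 collagen genes at 0.1 µM (4.96% of all genes), 20 at 1 µM (9.47%) and 35 at 10 µM (11.7%). They lay above all of DMSO for 0, 1 and 2 members, against 5.03%, 9.75% and 13.2% of all genes. The fitted log2 difference was negative for 30, 43 and 48 of the 56 members, against 49.6%, 51.3% and 51.3% of all genes. At 10 µM the median difference was -0.29 on the log2 scale over the members and -0.01 over all genes. Of the 33 falls at 10 µM, 25 passed the threshold in each of the 16 fits that left out 1 library. At 1 µM 4 of the 12 falls did so, and the count there was 5 on removal of DMSO library 2 or 4 (numbered by replicate) and 6 on removal of 1 µM library 1. When the percentage of reads outside genes was a covariate, 32 of the 33 falls at 10 µM were called. At 1 µM 3 genes then fell, of which col4a5 was also among the 12, and the median over the members was -0.189, against -0.105 without the covariate. The mean percentage was 33.2 in DMSO, 37 at 0.1 µM, 37.3 at 1 µM and 32.2 at 10 µM. At 0.1 and 1 µM the covariate thus followed the groups, so a call lost with it cannot tell that percentage and PCB153 apart. At 10 µM its range, 31.7 to 33.3, lay within that of DMSO, 31.4 to 35.5. The covariate could thus change little there, and the calls kept with it are a weak check.

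The lowest of the 4 group means was at 10 µM for 46 members (31.2% of all genes), and the means stepped down from DMSO through 0.1 and 1 to 10 µM for 19 members (7.36% of all genes). A change at any concentration was called for 35 members (24.4% of all genes). A fall at both 1 and 10 µM was called for 12 members (2.67% of all genes), and a fall at all 3 concentrations for COL10A1 ENSDARG00000054753 alone of the 56 (0.407% of all genes).

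**Figure D2:**
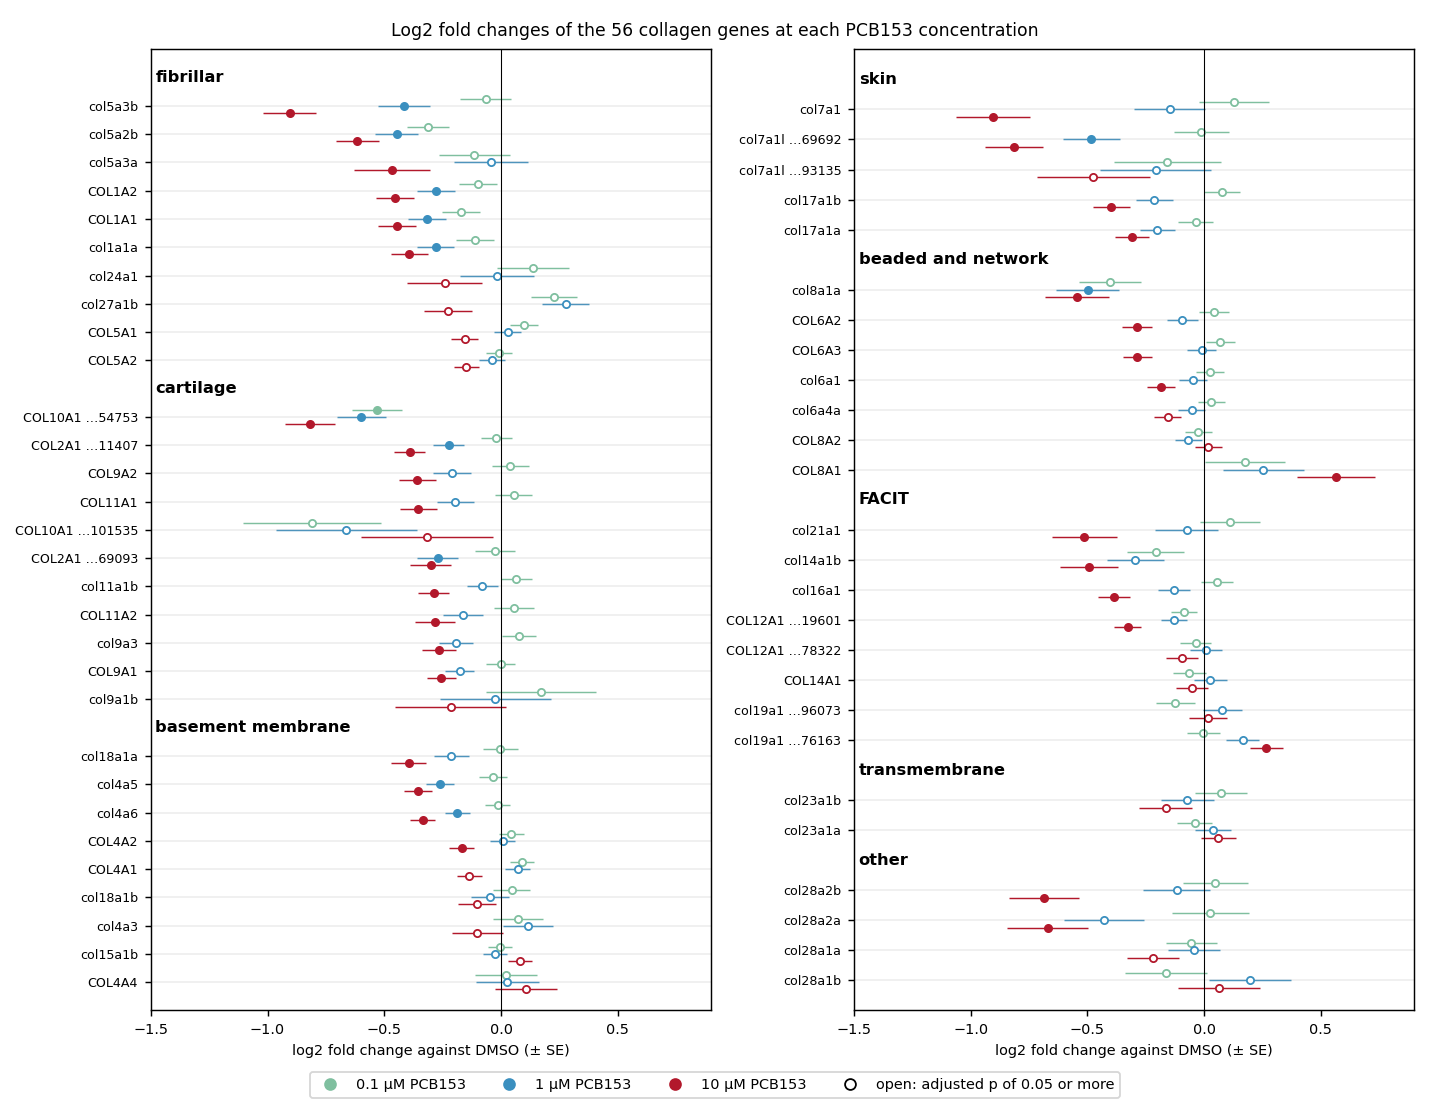
Log2 fold change against DMSO with its standard error (horizontal axis) for each of the 56 collagen genes, grouped by class and ordered by the 10 µM value, with colours for the 3 concentrations, filled points for an adjusted p under 0.05 and identifiers shortened to their last digits. Most 10 µM points lie left of 0, from -0.90 for col7a1 to 0.56 for COL8A1, and most 0.1 µM points lie near 0.

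Type I collagen, the main fibril of skin, tendon and bone, fell at 1 and at 10 µM in all 3 of its genes. Of all genes, 5.27% and 8.45% fell. In the DMSO libraries col1a1a, an alpha1 chain gene, was at 3664, 3974, 3889 and 3936 CPM, with 3213, 3913, 3911 and 3279 at 0.1 µM, 2658, 3405, 3401 and 3275 at 1 µM and 2785, 2809, 3034 and 3157 at 10 µM. The 1 and 10 µM libraries lay below all DMSO libraries, and 0.1 µM replicates 1 and 4 lay with them rather than with replicates 2 and 3. It fell by 0.28 ± 0.08 at 1 µM on the log2 scale (SE, n = 4 per group, adjusted p = 0.0241) and by 0.39 ± 0.08 at 10 µM (adjusted p = 0.00156). The alpha2 chain gene COL1A2 was at 2119, 2193, 2047 and 2118 CPM in DMSO, 1747, 2294, 2097 and 1772 at 0.1 µM, 1540, 1863, 1807 and 1774 at 1 µM and 1458, 1418, 1632 and 1683 at 10 µM, again without overlap between DMSO and the higher concentrations. Its fall was 0.28 ± 0.08 at 1 µM (adjusted p = 0.0264) and 0.45 ± 0.08 at 10 µM (adjusted p = 0.000469). COL1A1, the other alpha1 gene, fell by 0.32 ± 0.08 and 0.45 ± 0.08 (adjusted p = 0.012 and 0.000561). The 10 µM calls of all 3 held in every fit that left out 1 library. The 1 µM calls were lost for col1a1a on removal of DMSO library 2, 3 or 4, or of 1 µM library 1 (adjusted p of 0.0559 to 0.0848), for COL1A2 on removal of DMSO library 1, 2 or 4, or of 1 µM library 1 or 4 (0.0506 to 0.0912), for COL1A1 without DMSO replicate 2 (0.0502), and for all 3 with the covariate (0.132 to 0.189).

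The ratio of reads of the type I alpha1 genes to those of alpha2, (col1a1a + COL1A1) over COL1A2, lay between 2.63 and 2.96 in all 16 libraries. It carries no test, and the spread of such ratios for other gene pairs over all genes was not computed. A type I molecule holds alpha1 and alpha2 chains together in most vertebrate tissues.

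Type V collagen, which sits inside type I fibrils and limits their width, was split between its chain genes. The alpha3 chain gene col5a3b was at 135, 132, 135 and 137 CPM in DMSO, 106, 157, 137 and 116 at 0.1 µM, 91.8, 115, 90.4 and 106 at 1 µM and 66.7, 62.7, 78.5 and 80.2 at 10 µM. DMSO was tight, all 1 µM libraries were below it, and the 10 µM libraries were below all of 1 µM. It fell by 0.42 ± 0.11 at 1 µM (adjusted p = 0.0236) and by 0.90 ± 0.11 at 10 µM (adjusted p = 5.11e-05), a level 46.6% lower. Levels of col5a2b, an alpha2 chain gene, were 20.99, 24.5, 19.4 and 21.1 CPM in DMSO, 18.8, 16.6, 17.8 and 16.1 at 0.1 µM, 13.8, 15.3, 15.2 and 18.2 at 1 µM and 13.5, 13.4, 15.7 and 13.6 at 10 µM. Every exposed library lay below every DMSO library, and the gene fell by 0.45 ± 0.09 at 1 µM (adjusted p = 0.00233) and 0.62 ± 0.09 at 10 µM (adjusted p = 6.77e-05), with a difference of -0.31 ± 0.09 at 0.1 µM that was not called (adjusted p = 0.055). The low-count col5a3a fell by 0.47 ± 0.16 at 10 µM (adjusted p = 0.0471), a call lost without any 1 of the 4 DMSO libraries, of the 4 libraries of 10 µM or 1 µM library 4 (adjusted p of 0.0523 to 0.136), and also by DESeq2 (0.059) and with the covariate (0.0826). For col5a3b the 1 µM call was lost on removal of DMSO library 1, 3 or 4, or of 1 µM library 1 or 3 (0.0504 to 0.0752) and with the covariate (0.0745), which also ended that of col5a2b (0.108).

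The other type V genes did not pass. COL5A1, the alpha1 chain needed to start fibrils, was at 824, 787, 794 and 803 CPM in DMSO, 828, 931, 905 and 770 at 0.1 µM, 808, 811, 832 and 821 at 1 µM and 684, 691, 758 and 747 at 10 µM. Here the 1 µM libraries lay within the DMSO range or just above it, and the 10 µM libraries below it (-0.16 ± 0.06, adjusted p = 0.0678). Reads of COL5A1 over those of COL1A2 were 0.389, 0.359, 0.388 and 0.379 in DMSO, 0.474, 0.406, 0.432 and 0.435 at 0.1 µM, 0.524, 0.435, 0.460 and 0.463 at 1 µM, and 0.469, 0.488, 0.465 and 0.444 at 10 µM. Each exposed library had more COL5A1 reads per COL1A2 read than each DMSO library, 0.1 µM included, although neither gene was called at 0.1 µM. This ratio carries no test, and how often ratios of other gene pairs part in this way over all genes was not computed. COL5A2 differed by -0.15 ± 0.06 at 10 µM (adjusted p = 0.0651).

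Of the remaining fibrillar genes, col27a1b, a gene of cartilage and notochord, had another pattern. It was at 15.6, 14.8, 18.9 and 19.03 CPM in DMSO, 21.3, 21.5, 19.5 and 17.7 at 0.1 µM, 19.9, 23.8, 19.4 and 19.8 at 1 µM and 14.8, 12.5, 15.98 and 15.02 at 10 µM. The 1 µM libraries were above all of DMSO without passing the test (0.28 ± 0.10, adjusted p = 0.072), and the 10 µM libraries were below all of 1 µM. The fall from 1 to 10 µM was called, by 0.51 ± 0.10 (adjusted p = 0.00617). It was the 1 call of that comparison that held in every fit that left out 1 library, but it was lost with the covariate (0.676). The low-count col24a1 was not called at any concentration.

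**Figure D3:**
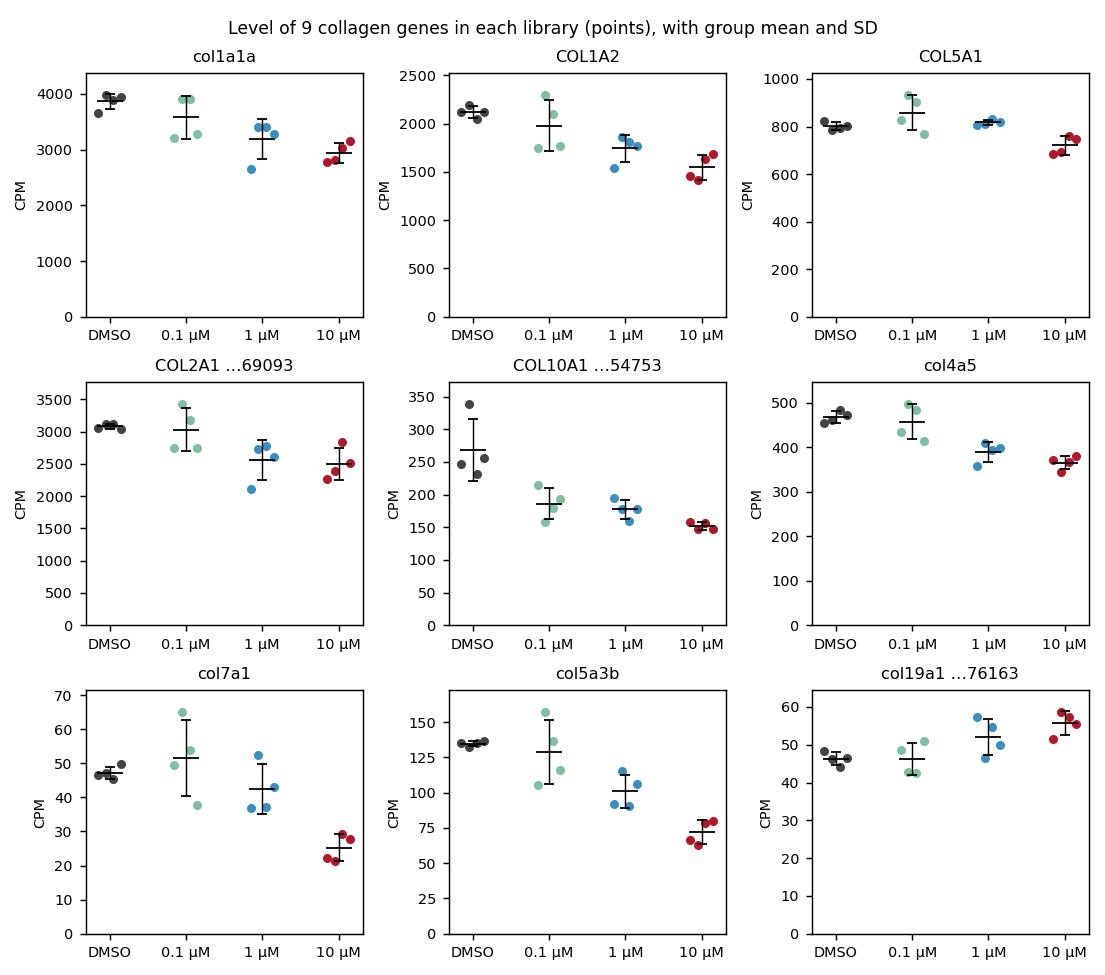
CPM of 9 collagen genes in each library (points; vertical axis from 0), with the group mean and SD as a black bar, for DMSO and the 3 concentrations of PCB153. The 10 µM points lie below all DMSO points for 8 of the genes and above them for col19a1 ENSDARG00000076163, while COL5A1 at 1 µM lies at the DMSO level.

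Cartilage collagens were lower at 10 µM, where 9 of 11 genes fell and none rose (8.45% and 9.9% of all genes). Type II collagen is the fibril of cartilage and of the notochord sheath. COL2A1 ENSDARG00000069093 was at 3060, 3117, 3118 and 3036 CPM in DMSO, 2752, 3428, 3181 and 2750 at 0.1 µM, 2106, 2729, 2781 and 2599 at 1 µM and 2261, 2382, 2843 and 2519 at 10 µM. The DMSO values were close together, 1 and 10 µM overlapped each other and both lay below DMSO. The fall was 0.27 ± 0.09 at 1 µM (adjusted p = 0.0431) and 0.30 ± 0.09 at 10 µM (adjusted p = 0.0185). The other, COL2A1 ENSDARG00000011407, was at 601, 633, 636 and 637 CPM in DMSO, 582, 676, 646 and 569 at 0.1 µM, 507, 578, 525 and 538 at 1 µM and 454, 433, 518 and 507 at 10 µM. It fell by 0.22 ± 0.07 at 1 µM (adjusted p = 0.0294) and by 0.39 ± 0.07 at 10 µM (adjusted p = 0.000262). The 1 µM call was lost for COL2A1 ENSDARG00000069093 on removal of any 1 DMSO library, of 0.1 µM library 3, of 1 µM library 1 or 4, or of 10 µM library 4 (adjusted p of 0.0505 to 0.141) and for COL2A1 ENSDARG00000011407 on removal of DMSO library 2, 3 or 4, or of 1 µM library 1, 3 or 4 (0.0615 to 0.0826). With the covariate it was lost for both (0.244 and 0.0561), and without the 3 libraries that stood apart for the former (0.0567). At 10 µM the call of COL2A1 ENSDARG00000069093 was lost without 10 µM replicate 1 or 2 (0.0701 and 0.0623).

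Type X collagen is made by hypertrophic chondrocytes in mammals and also by bone-forming cells in zebrafish. COL10A1 ENSDARG00000054753 was at 246, 339, 232 and 257 CPM in DMSO, 214, 158, 179 and 193 at 0.1 µM, 194, 178, 160 and 178 at 1 µM and 158, 147, 157 and 147 at 10 µM. Every exposed library lay below every DMSO library, and the 10 µM libraries were closest together. It fell by 0.53 ± 0.11 at 0.1 µM (adjusted p = 0.00977), 0.60 ± 0.11 at 1 µM (adjusted p = 0.00138) and 0.82 ± 0.11 at 10 µM (adjusted p = 5.83e-05). These calls held in every fit that left out 1 library. With the covariate the adjusted p was 0.177 at 0.1 µM and 0.0578 at 1 µM. In a fit of the 8 libraries compared it was 0.0871 at 0.1 µM, and 0.109 without the 3 libraries that stood apart. The second gene of that symbol, COL10A1 ENSDARG00000101535, had few counts, at 1.95, 2.32, 1.40 and 1.54 CPM in DMSO and 1.61, 1.79, 0.897 and 1.46 at 10 µM, and was not called.

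Type XI collagen starts the cartilage fibril and type IX coats its surface. COL11A1 was at 1105, 1105, 1065 and 1059 CPM in DMSO, 1075, 1287, 1156 and 984 at 0.1 µM, 862, 1028, 959 and 934 at 1 µM and 761, 792, 970 and 869 at 10 µM. All libraries of 1 and 10 µM lay below DMSO, and the fall at 10 µM was 0.35 ± 0.08 (adjusted p = 0.00327). COL11A2 fell by 0.28 ± 0.09 (adjusted p = 0.0254) and col11a1b by 0.29 ± 0.07 (adjusted p = 0.00392) at 10 µM. Of the type IX chain genes, COL9A2 fell by 0.36 ± 0.08, col9a3 by 0.27 ± 0.07 and COL9A1 by 0.26 ± 0.06 at 10 µM (adjusted p = 0.00372, 0.0134 and 0.006). None of these 6 genes was called at 1 µM, where the differences ran from -0.21 ± 0.08 for COL9A2 to -0.08 ± 0.07 for col11a1b. All 4 libraries of each lay below DMSO there, as they did for 9.47% of all genes. The gap was narrow for COL9A1, whose highest 1 µM library was at 191.7 CPM and lowest DMSO library at 191.9 CPM. The 10 µM call was lost for COL11A2 on removal of DMSO library 1 or 2, or of 10 µM library 1 or 2 (adjusted p of 0.0552 to 0.0919) and for col9a3 without 10 µM replicate 1 or 2 (0.0531 and 0.0547). A second alpha1 gene of type IX, col9a1b, varied widely within groups, with 205, 194, 127 and 142 CPM in DMSO and 111, 147, 195 and 122 at 10 µM, and was not called.

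Markers of cartilage other than collagens did not move in one direction. Of 18 such genes, 4 fell and 2 rose at 10 µM (8.45% and 9.9% of all genes). Their summed level was 1486 to 1514 CPM in DMSO and 1351 to 1501 CPM at 10 µM. Their part in the falls of the cartilage collagens was not tested. Both SOX9 genes, which encode the transcription factor that switches on type II collagen in chondrocytes, fell at 0.1, 1 and 10 µM. SOX9 ENSDARG00000043923 went from 28.9 CPM in DMSO to 22.96, 20.4 and 18.3 CPM, falls of 0.33 ± 0.09, 0.50 ± 0.10 and 0.66 ± 0.10 (adjusted p = 0.0498, 0.00126 and 4.81e-05). The 0.1 µM call was lost on removal of any 1 DMSO library, of 0.1 µM library 1, 2 or 4, of 1 µM library 2, 3 or 4, or of 10 µM library 1, 3 or 4 (adjusted p of 0.0511 to 0.154). Against this, MATN3 ENSDARG00000069265, a matrilin of the cartilage matrix, rose from 13.6 (range 11.5 to 15.1) in DMSO to 25.5 CPM (range 24.2 to 26.9) at 10 µM, by 0.91 ± 0.11 (adjusted p = 2.8e-06). MATN4, another matrilin, fell by 0.31 ± 0.05 at 10 µM (adjusted p = 0.000238).

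Of 10 bone genes tested, 4 fell and 1 rose at 10 µM (8.45% and 9.9% of all genes). The summed level was 148.9 to 168.7 CPM in DMSO and 142.9 to 149.5 CPM at 10 µM. IFITM5, a membrane protein of osteoblasts, fell by 1.38 ± 0.23 (adjusted p = 0.00021), PANX3, a channel of osteoblasts and chondrocytes, by 1.04 ± 0.24 (adjusted p = 0.00381), ENTPD5, needed for mineralization in zebrafish, by 0.97 ± 0.21 (adjusted p = 0.00509) and the mineralization phosphatase PHOSPHO1 by 0.69 ± 0.16 (adjusted p = 0.00404). SP7, the osteoblast transcription factor also called osterix, fell by 0.47 ± 0.15 at 1 µM (adjusted p = 0.0448) and differed by -0.32 ± 0.15 at 10 µM (adjusted p = 0.135). The 1 µM call of SP7 was lost without any 1 of 9 libraries, among them DMSO replicates 1, 2 and 3 and 1 µM replicates 1, 3 and 4 (adjusted p of 0.0528 to 0.162 over the 9).

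Basement membrane collagens fell in 4 of 9 genes at 10 µM (8.45% of all genes fell). The type IV chain genes col4a5 and col4a6 moved alike. In DMSO col4a5 was at 454, 461, 484 and 473 CPM, with 434, 497, 483 and 415 at 0.1 µM, 358, 411, 394 and 398 at 1 µM and 371, 345, 366 and 381 at 10 µM. The 1 and 10 µM values lay below DMSO and overlapped each other, and 0.1 µM spread across the DMSO range. It fell by 0.26 ± 0.06 at 1 µM (adjusted p = 0.00629) and 0.36 ± 0.06 at 10 µM (adjusted p = 0.000293), and it was the 1 collagen gene whose 1 µM call held under every alternative. Mutants of col4a5 in zebrafish have a damaged basement membrane over the optic tectum. Levels of col4a6 were 403, 407, 403 and 405 CPM in DMSO, 339, 372, 350 and 361 at 1 µM and 324, 306, 321 and 332 at 10 µM, with no overlap among the 3 groups. It fell by 0.19 ± 0.05 at 1 µM (adjusted p = 0.023) and 0.34 ± 0.05 at 10 µM (adjusted p = 0.00012). The 1 µM call of col4a6 was lost on removal of DMSO library 2 or 4, or of 1 µM library 1 or 3 (adjusted p of 0.0515 to 0.0661), with the covariate (0.107) and without the 3 libraries that stood apart (0.0506).

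The ubiquitous type IV chain genes, COL4A1 and COL4A2, moved less. COL4A1 was at 275, 253, 255 and 268 CPM in DMSO, 271, 295, 292 and 260 at 0.1 µM, 270, 273, 289 and 271 at 1 µM and 235, 235, 241 and 246 at 10 µM. At 10 µM its libraries were below all others, yet against DMSO the difference of -0.14 ± 0.05 was not called (adjusted p = 0.0754). It was called against 1 µM, by 0.21 ± 0.05 (adjusted p = 0.0225). That call was lost without 1 µM replicate 3 or 10 µM replicate 1 or 2 (0.0577 to 0.0705) and with the covariate (0.396). COL4A2 fell by 0.17 ± 0.05 at 10 µM (adjusted p = 0.0276), a call lost on removal of DMSO library 1 or 3, or of 10 µM library 1, 2 or 3 (0.0506 to 0.0879). The read ratio COL4A1 over COL4A2 stayed between 2.19 and 2.43 in all libraries, and that of col4a5 over col4a6 between 1.04 and 1.20, with 1 µM (1.06 to 1.12) below DMSO (1.12 to 1.20). That of the low-count pair col4a3 over COL4A4 ran from 0.867 to 1.49. In the RefSeq gene table (assembly GRCz12tu) the genes of each of these pairs are neighbours. The genes col4a3 and COL4A4, whose chains join that of col4a5 in the mammalian kidney, were not called and had few counts.

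The multiplexins, collagens of types XV and XVIII that carry endostatin at their end, differed from each other. The gene col18a1a was at 254, 257, 262 and 266 CPM in DMSO, 259, 285, 264 and 228 at 0.1 µM, 233, 248, 204 and 213 at 1 µM and 177, 184, 216 and 213 at 10 µM. It fell by 0.40 ± 0.07 at 10 µM (adjusted p = 0.000743). The related col15a1b was at 55, 53.8, 56.8 and 55.9 CPM in DMSO and 59.7, 58.5, 60.4 and 55.9 CPM at 10 µM, overlapping and not called (0.08 ± 0.05, adjusted p = 0.278), and col18a1b was not called either.

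Of 26 other basement membrane genes tested, 3 fell at 1 µM and 14 fell at 10 µM, and none rose (2 more had no test, of which hmcn2 had no count in any library). Of all genes, 5.27% and 8.45% fell. The median at 10 µM was -0.22 on the log2 scale. Laminin chain genes among those that fell at 10 µM were lamb4 by 0.44 ± 0.08 (adjusted p = 0.000583) and lama3, a chain of the laminin under the epidermis, by 0.40 ± 0.08 (adjusted p = 0.0011). NID2, a nidogen that links laminin to type IV collagen, fell by 0.34 ± 0.07 at 1 µM and 0.36 ± 0.07 at 10 µM (adjusted p = 0.00136 and 0.000644). FREM2 ENSDARG00000102626, of the complex that holds fin epidermis to the dermis, fell by 0.35 ± 0.06 (adjusted p = 0.000263). Summed, these genes were at 2576 to 2651 CPM in DMSO and 2219 to 2355 CPM at 10 µM.

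Skin collagens fell at 10 µM in 4 of 5 genes (8.45% of all genes fell). Type VII collagen forms the anchoring fibrils under the epidermis. Its gene col7a1 was at 46.5, 47.1, 45.3 and 49.6 CPM in DMSO, 49.5, 64.9, 53.8 and 37.8 at 0.1 µM, 36.8, 52.4, 37.2 and 43.1 at 1 µM and 22.3, 21.3, 29.3 and 27.9 at 10 µM. The 0.1 and 1 µM libraries spread around DMSO and the 10 µM libraries lay below every other library. It fell by 0.90 ± 0.16 at 10 µM (adjusted p = 0.00139), a level 46.6% lower, and also against 1 µM, by 0.76 ± 0.16 (adjusted p = 0.0158). The type VII gene col7a1l ENSDARG00000069692 was at 25.98, 27.3, 28.5 and 29.3 CPM in DMSO, 24.1, 35.3, 25.5 and 25.1 at 0.1 µM, 15.6, 22.96, 19.6 and 20.5 at 1 µM and 16.1, 12.7, 17.5 and 16.6 at 10 µM. Here 1 µM was already below DMSO, with a fall of 0.48 ± 0.12 (adjusted p = 0.0135), and 10 µM fell by 0.82 ± 0.12 (adjusted p = 0.000161). Another gene of that symbol, col7a1l ENSDARG00000093135, had few counts and was not called. With the covariate the adjusted p of col7a1l ENSDARG00000069692 at 1 µM was 0.087. The fall of col7a1 against 1 µM was lost without 10 µM replicate 1 or 2 (adjusted p = 0.0538 and 0.0537) and with the covariate (0.51).

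Type XVII collagen spans the membrane of basal epidermal cells at hemidesmosomes. Its gene col17a1a was at 417, 435, 442 and 466 CPM in DMSO, 399, 476, 460 and 382 at 0.1 µM, 371, 427, 349 and 385 at 1 µM and 345, 325, 370 and 382 at 10 µM. All 10 µM libraries were below DMSO, and the fall was 0.31 ± 0.07 (adjusted p = 0.00561). The second gene, col17a1b, fell by 0.40 ± 0.08 (adjusted p = 0.00133). Of 16 markers of the epidermis tested, 8 fell at 1 µM and 8 fell at 10 µM, where 1 also rose. Of all genes, 5.27% and 8.45% fell, and 9.9% rose at 10 µM. The summed level of these markers was 12540 to 14350 CPM in DMSO, 10470 to 12690 at 0.1 µM, 9444 to 11050 at 1 µM and 9487 to 10410 at 10 µM. The keratin gene krt4, of the surface layer, fell by 0.53 ± 0.08 at 10 µM (adjusted p = 9.75e-05). Against DMSO the median log2 difference was -0.286 over these markers and -0.208 over the 5 skin collagens at 1 µM. At 10 µM it was -0.297 and -0.475. From 1 to 10 µM the median difference was 0.06 on the log2 scale over these markers and -0.27 over the 5 skin collagens, of which 1 was called. The part of the epidermis in the falls of the skin collagens was not tested.

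Type VI collagen, a beaded microfibril around muscle and connective tissue cells, fell at 10 µM in 3 of its 4 genes. Of all genes, 8.45% fell. COL6A3 was at 222, 216, 218 and 232 CPM in DMSO, 236, 238, 247 and 210 at 0.1 µM, 217, 230, 221 and 213 at 1 µM and 171, 167, 194 and 197 at 10 µM. The 10 µM libraries lay below every other library, and 0.1 and 1 µM lay around DMSO. It fell by 0.29 ± 0.06 (adjusted p = 0.00246), COL6A2 by 0.29 ± 0.06 (adjusted p = 0.00358) and col6a1 by 0.18 ± 0.06 (adjusted p = 0.0371). The call of col6a1 was lost without any 1 DMSO library or 10 µM replicate 1 or 2 (adjusted p of 0.0533 to 0.137) and with the replicate block (0.0543). The fourth gene, col6a4a, differed by -0.16 ± 0.06 (adjusted p = 0.0615).

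Network collagens of type VIII went in different directions. The gene col8a1a, which is needed for a straight notochord in zebrafish, was at 40.2, 56.8, 44.5 and 50.2 CPM in DMSO, 33.4, 38.01, 40.3 and 33.3 at 0.1 µM, 23.9, 33.2, 40.9 and 35.98 at 1 µM and 28.9, 31.2, 37.02 and 34.5 at 10 µM. Only 1 library, 1 µM replicate 3, kept 1 µM from lying wholly below DMSO. It fell by 0.50 ± 0.14 at 1 µM (adjusted p = 0.0261) and 0.54 ± 0.14 at 10 µM (adjusted p = 0.0117), the former lost on removal of DMSO library 2 or 4, or of 1 µM library 2 (0.0581 to 0.0762), in the fit of the 8 libraries compared (0.0908) and with the covariate (0.257). In contrast COL8A1 was at 4.78, 3.42, 5.13 and 3.91 CPM in DMSO and 6.09, 6.67, 6.77 and 5.98 at 10 µM, where all libraries lay above DMSO. It rose by 0.56 ± 0.17 at 10 µM (adjusted p = 0.021), a call lost on removal of DMSO library 2 or 4, or of 10 µM library 2 (0.0557 to 0.0766). COL8A2 was not called.

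Among the FACITs, collagens that bind to fibrils rather than form them, 4 of 8 genes fell and 1 rose at 10 µM. Of all genes, 8.45% fell and 9.9% rose. Type IX, which also binds to fibrils, was counted with the cartilage collagens and is not among these 8. COL12A1 ENSDARG00000019601 was at 470, 482, 468 and 489 CPM in DMSO, 443, 463, 477 and 417 at 0.1 µM, 396, 468, 437 and 445 at 1 µM and 377, 363, 385 and 396 at 10 µM. The 10 µM libraries lay below all of DMSO and 0.1 µM, and the fall was 0.33 ± 0.06 (adjusted p = 0.000329). The other gene of type XII, COL12A1 ENSDARG00000078322, was at 479, 443, 456 and 471 CPM in DMSO and 446, 406, 434 and 447 at 10 µM, which overlapped (-0.09 ± 0.07, adjusted p = 0.369). Falls at 10 µM were also called for col16a1, by 0.39 ± 0.07 (adjusted p = 0.000429), col14a1b, by 0.49 ± 0.12 (adjusted p = 0.0121), and the low-count col21a1, by 0.51 ± 0.14 (adjusted p = 0.0122, 0.05 without DMSO replicate 3 and 0.0577 without 10 µM replicate 2). The gene that rose, col19a1 ENSDARG00000076163, was at 48.4, 46.2, 44.1 and 46.5 CPM in DMSO, 48.5, 42.7, 42.6 and 50.9 at 0.1 µM, 57.3, 46.4, 54.6 and 49.99 at 1 µM and 51.6, 58.5, 57.4 and 55.6 at 10 µM. Its 10 µM libraries lay above all of DMSO, and the rise was 0.27 ± 0.07 (adjusted p = 0.0104). COL14A1 and the second col19a1 gene were not called.

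The transmembrane genes col23a1a and col23a1b differed by 0.06 ± 0.08 and -0.17 ± 0.11 at 10 µM and were not called. Of the 4 genes of type XXVIII, a collagen related to type VI by its von Willebrand factor domains, 2 fell at 10 µM. Of all genes, 8.45% fell. The gene col28a2b was at 5.43, 6.49, 5.73 and 6.73 CPM in DMSO and 3.82, 3.16, 3.75 and 4.37 at 10 µM, below every DMSO library, a fall of 0.69 ± 0.15 (adjusted p = 0.00275). Levels of col28a2a were 31.3, 29.3, 30.1 and 30.8 CPM in DMSO and 16.3, 14.96, 22.2 and 22.8 at 10 µM, a fall of 0.67 ± 0.17 (adjusted p = 0.0151, 0.0527 without 10 µM replicate 1). The genes col28a1a and col28a1b were not called.

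**Figure D4:**
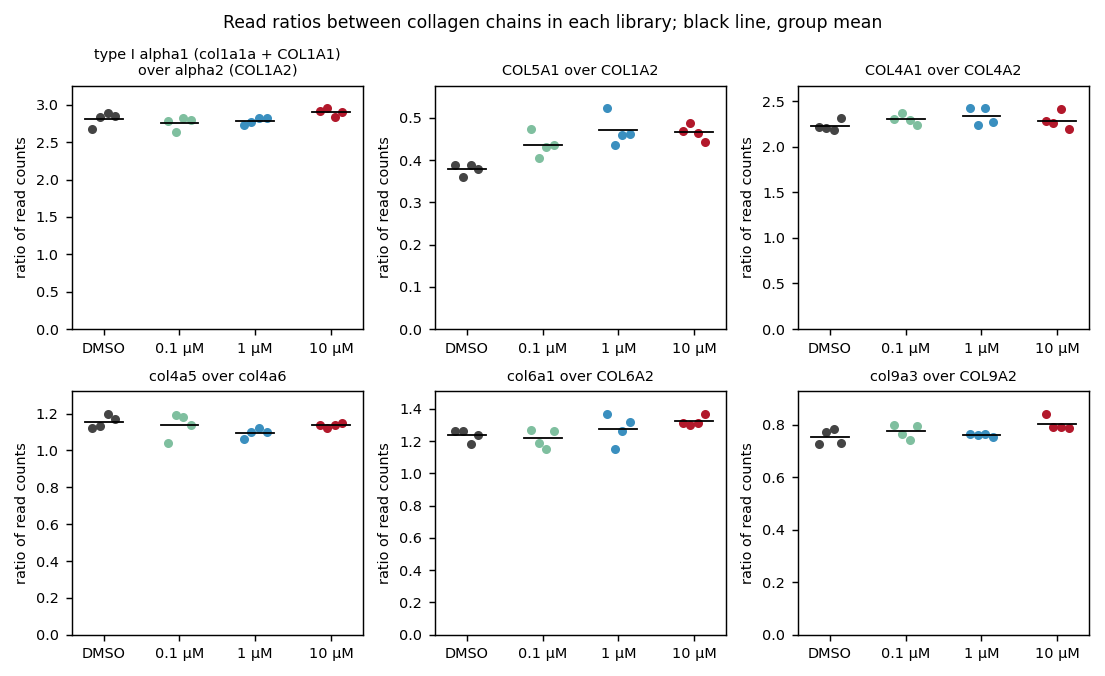
Ratio of read counts between collagen chain genes in each library (points; vertical axis from 0), with a black line at each group mean, for DMSO and the 3 concentrations of PCB153. The ratios of type I alpha1 over alpha2 and of COL4A1 over COL4A2 stay between 2.63 and 2.96 and between 2.19 and 2.43 in all 16 libraries, and COL5A1 over COL1A2 lies higher in every exposed library than in every DMSO library.

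Read ratios between chains of other types shifted little. At 10 µM col6a1 over COL6A2 was 1.3 to 1.37 against 1.18 to 1.26 in DMSO, col9a3 over COL9A2 was 0.788 to 0.843 against 0.727 to 0.783, and COL11A1 over COL11A2 was 1.64 to 1.71 against 1.74 to 1.78. These are the ratios, beside COL5A1 over COL1A2, for which 10 µM did not overlap DMSO, of 12 computed. They carry no test.

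The concentrations were also compared directly. At 10 against 1 µM, 9 collagen genes fell and none rose (1 higher at an unadjusted p under 0.05, 0 by DESeq2), against 3.05% and 3.11% of all genes. Besides col27a1b, col7a1, COL4A1 and COL4A2 they were COL6A3, col5a3b, col28a2b, col16a1 and COL12A1 ENSDARG00000019601, with falls from 0.20 to 0.57 on the log2 scale. The count was 4 on removal of 1 µM library 2 or 4, 2 on removal of 10 µM library 1, 1 on removal of 10 µM library 2, and 18 without the 3 libraries that stood apart. At 1 against 0.1 µM no collagen gene was called in either direction (0.435% of all genes fell and 0.538% rose), with 20 lower and 2 higher at an unadjusted p under 0.05 and 5 lower by DESeq2. The count of falls was 3 and 7 on removal of 0.1 µM library 1 or 4, 4 on removal of 1 µM library 2 and 1 on removal of 10 µM library 2. All 4 libraries of 1 µM lay below all of 0.1 µM for 4 members and above for 1 (3.47% and 3.12% of all genes), and for 10 against 1 µM for 13 and 1 (6.75% and 6.91%). The difference was negative for 43 and 49 members, against 49.3% and 49.9% of all genes.

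At 10 against 0.1 µM, 33 collagen genes fell and 1 rose, col19a1 ENSDARG00000076163, against 10.6% and 10.8% of all genes. All 4 libraries of 10 µM lay below all of 0.1 µM for 26 members and above for 1 (9.49% and 11.7% of all genes), and the difference was negative for 46 (51% of all genes). The share of reads outside genes differed between the groups in both comparisons with 10 µM. With that share as a covariate no collagen gene was called at 10 against 0.1 µM (28 lower at an unadjusted p under 0.05) or at 10 against 1 µM (4 lower). Over all genes the count of falls went from 2263 to 133 and from 651 to 38 with the covariate. The median over the members was -0.24 with it and -0.28 without it at 10 against 0.1 µM, and -0.14 and -0.16 at 10 against 1 µM. Without the 3 libraries that stood apart, 18 fell at 10 against 0.1 µM.

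Genes of collagen folding, secretion, crosslinking, binding and degradation were set beside the collagen genes. Of all genes tested, 8.45% fell and 9.9% rose at 10 µM, and 5.27% fell and 7.13% rose at 1 µM. Of 22 genes of collagen modification and folding, 3 fell and none rose at 10 µM, with a median of -0.18 on the log2 scale against -0.01 over all genes, and at 1 µM 3 fell and 1 rose. SERPINH1 ENSDARG00000019949, which encodes the collagen chaperone HSP47, fell at all 3 concentrations, from 18.1 CPM (range 13.2 to 20.97) in DMSO to 8.89 (5.36 to 12.3) at 0.1 µM, 6.22 (5.17 to 6.93) at 1 µM and 9.48 (8.17 to 11.4) at 10 µM. The falls were 1.03 ± 0.20, 1.54 ± 0.22 and 0.94 ± 0.20 (adjusted p = 0.0092, 0.000199 and 0.00437), and the means were not ordered by concentration. The other gene of that symbol, SERPINH1 ENSDARG00000075954, differed by -0.26 ± 0.10 at 1 µM and -0.26 ± 0.10 at 10 µM and was not called. P3H1, a prolyl 3-hydroxylase of collagen, fell by 0.41 ± 0.11 at 10 µM (adjusted p = 0.0122, 0.0549 without 10 µM replicate 2), and its relative P3H2 rose by 0.43 ± 0.08 at 1 µM (adjusted p = 0.00131).

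Of 10 genes of procollagen secretion, 2 rose at 10 µM and none fell, against 9.9% and 8.45% of all genes. CREB3L1, a membrane-bound transcription factor that switches on secretory and collagen genes in bone, rose by 0.64 ± 0.09 at 0.1 µM and 0.58 ± 0.10 at 1 µM (adjusted p = 0.000239 and 0.000282) and differed by 0.27 ± 0.10 at 10 µM (adjusted p = 0.0588). SEC24D, a coat protein of the vesicles that carry procollagen, rose by 0.35 ± 0.09 at 1 µM and 0.39 ± 0.09 at 10 µM (adjusted p = 0.0166 and 0.00539), the former lost without DMSO replicate 3 (0.0596) or 1 µM replicate 3 (0.0576). Among 22 genes of cleavage and crosslinking, 3 fell and 1 rose at 10 µM (8.45% and 9.9% of all genes). The one that rose was the lysyl oxidase relative loxl2a, from 31.9 CPM (range 30.2 to 33.4) in DMSO to 47.5 (39.04 to 56.6), 57.1 (52.5 to 63.2) and 48.4 (44.5 to 54.5), rises of 0.57 ± 0.09, 0.83 ± 0.09 and 0.60 ± 0.09 (adjusted p = 0.00071, 2.42e-06 and 0.000104). Every exposed library was above every DMSO library. Another relative, loxl5b, fell by 1.00 ± 0.20 at 1 µM (adjusted p = 0.00184).

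Of 14 collagen receptor genes 3 fell at 10 µM, among them ITGB1 ENSDARG00000053232, the beta chain of the collagen-binding integrins, by 0.25 ± 0.07 (adjusted p = 0.0131), a call lost without DMSO replicate 4 (0.0582) or 10 µM replicate 2 (0.0674). Of 13 genes of collagen degradation 2 fell and 1 rose at 10 µM, where 8.45% of all genes fell and 9.9% rose. MMP15 ENSDARG00000051962, a membrane-bound matrix protease, fell by 0.26 ± 0.06 at 1 µM and 0.36 ± 0.06 at 10 µM (adjusted p = 0.00731 and 0.000251). Of 28 fibril-associated proteoglycans and glycoproteins, 7 fell and 1 rose at 10 µM. THBS3 ENSDARG00000012060, a thrombospondin, fell by 0.29 ± 0.05 (adjusted p = 0.000574) and its relative THBS4 ENSDARG00000020072, of tendon, rose by 0.34 ± 0.07 (adjusted p = 0.002). The summed level of the degradation genes was 545 to 560 CPM in DMSO and 541 to 570 CPM at 10 µM.

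Markers of the other tissues that make collagen were set beside these results. Of all genes tested, 5.27% fell at 1 µM and 8.45% at 10 µM. Of 14 fibroblast and tendon genes, 4 fell at 1 µM and 5 at 10 µM, with a summed level of 620 to 664 CPM in DMSO and 502 to 582 CPM at 10 µM. Among them twist2 fell by 0.62 ± 0.14 at 1 µM and 0.66 ± 0.14 at 10 µM (adjusted p = 0.0054 and 0.0021). Of 11 notochord genes 4 fell at 10 µM, including ENTPD5, which is also on the bone list, and SHH ENSDARG00000038867, by 0.69 ± 0.15 (adjusted p = 0.00338). The summed notochord level overlapped, at 427 to 458 CPM in DMSO and 414 to 436 CPM at 10 µM. Of 17 skeletal muscle genes 4 fell at 10 µM, and their sum was 15510 to 17050 CPM in DMSO and 16550 to 17190 CPM at 10 µM. Of 8 vessel genes 1 fell, TIE1, an endothelial receptor, by 0.38 ± 0.07 (adjusted p = 0.000856), with a sum of 220 to 244 CPM in DMSO and 233 to 239 CPM at 10 µM. The part of any of these tissues in the falls of the collagen genes was not tested.

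**Figure D5:**
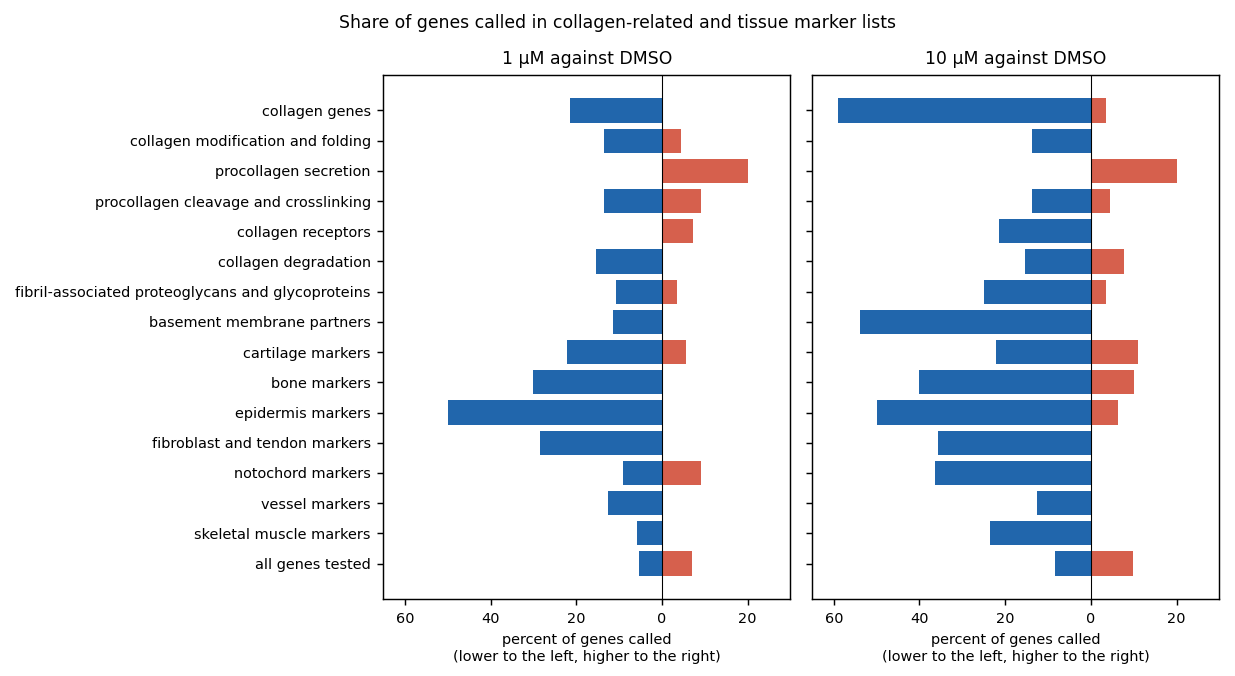
Percent of genes called lower (to the left) and higher (to the right) against DMSO at 1 µM and at 10 µM, for the collagen genes, 14 lists of collagen-related and tissue marker genes, and all genes tested. At 10 µM the collagen genes and their basement membrane partners have over 50% of genes lower, against 8.45% of all genes.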

How the data were processed

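Counts per gene were deposited for 16 libraries, 1 file each, with Ensembl identifiers. Per the labels' protocols, total RNA was made into stranded libraries with a Ribo-Zero Gold kit. Trimmomatic, HTSeq, edgeR and the build GRCz10 are named per the submitters' processing notes, the file names state counting on the reverse strand in union mode, and the aligner is, like the annotation, not given in the sources used here. No gene count was changed. Rows that name no gene were left out of library sizes and tests (reads in no counted gene were 31.4% to 40.4% of uniquely aligned reads). Gene counts summed to 8069225 to 15531744 per library. Symbols came from the supplied name table.

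All 21372 genes kept by filterByExpr (minimum count 10) entered 1 edgeR 4.0.16 quasi-likelihood fit of the 4 groups (R 4.3.3, TMM factors), with Benjamini-Hochberg adjustment over all of them and a threshold of 0.05. CPM used the TMM factors. The members and gene lists were chosen with earlier results of these data known. Members named are those called at any concentration against DMSO, and the 3 of highest mean CPM per class. Companion genes named are up to 4 per list with the smallest p, and the SERPINH1, SOX9 and SP7 genes. Any gene named beyond these was chosen after its values were seen. Alternatives were RLE factors, no count filter, DESeq2 1.42.0, the 8 libraries compared, a covariate for the percentage of reads outside genes, a replicate block and leaving out each library. Leaving out the 3 libraries that stood apart was chosen after seeing the data. The script was tested on simulated data.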

Additional observations from a re-analysis of the deposited data

Results flagged for a closer look

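Of the 56 collagen genes the 40 chosen by the rule for named members were examined, in 160 sets of 4 libraries (1 set per gene and group). In 8 of them a library stood far from the other three relative to the range of its group (Dixon's criterion at the 95% level), where chance gives about 1 in 20. COL2A1 ENSDARG00000011407 was at 601 CPM in DMSO replicate 1 (next 633), and COL4A2 at 123 CPM in DMSO replicate 1 (next 116). At 0.1 µM replicate 2 was high for col7a1l ENSDARG00000069692, at 35.3 CPM (next 25.5), and for col28a2a, at 37.3 CPM (next 29.1). At 1 µM COL8A1 was at 6.97 CPM in replicate 1 (next 4.76), and COL4A1 at 289 CPM in replicate 3 (next 273). At 10 µM col5a2b was at 15.7 CPM in replicate 3 (next 13.6), and col14a1b at 50.1 CPM in replicate 4 (next 39.5).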

How the results depend on the processing

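Among the genes chosen by the naming rules, no call reversed its direction under the alternatives run. Other members, such as col27a1b, were not examined for this. The median log2 difference over the 56 genes at 0.1 µM, -0.004, lay close to 0 and ran from -0.070 to 0.033 over the alternatives. Counts of collagen genes lower than DMSO were 1, 12 and 33 at 0.1, 1 and 10 µM. With the covariate they were 0, 3 and 32, and with the replicate block 2, 13 and 32. At 1 µM the median over the members was -0.189 with the covariate and -0.105 without it, with 20 and 23 lower at an unadjusted p under 0.05. Without the 3 libraries that stood apart the counts were 5, 10 and 37. The 5 genes at 0.1 µM did not include the 1 of the main fit. That group then held only replicates 1 and 4, with summed levels of 19450 and 18850 CPM, against 23060 and 21970 in replicates 2 and 3. At 0.1 µM the fit of the 8 libraries compared gave 0. Over the fits that left out 1 library, the counts ran from 1 to 3, from 5 to 15 and from 26 to 35, and the count higher at 10 µM from 1 to 2 (1 without DMSO replicate 2 or 4 or 10 µM replicate 2). At 1 against 0.1 µM, 0 genes fell, 1 with no count filter, 5 by DESeq2, and 0 to 7 with 1 library left out. At 10 against 1 µM, 9 fell, 0 with the covariate, 18 without the 3 libraries, and 1 to 12 with 1 left out. At 10 against 0.1 µM, 33 fell, 0 with the covariate, 18 without the 3 libraries and 26 to 34 with 1 left out, and 1 rose, 0 with the covariate or without the 3 libraries, and 1 to 2 with 1 left out. Calls over the collagen processing, receptor and matrix lists were 3, 21 and 37, and 3 to 4, 11 to 23 and 18 to 46 with 1 library left out (lowest without DMSO replicate 3 or 1 µM replicate 3, and without 10 µM replicate 2). The cause of these shifts was not tested.

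Replicate numbers shared between groups did not pair the libraries: 24 same-number pairs had correlations from -0.178 to 0.229, and 2 of 16 libraries correlated best with their own number. With the replicate block 7 genes fell at 10 against 1 µM and 35 at 10 against 0.1 µM. Library sizes limit the low-count members, such as col5a3a and COL10A1 ENSDARG00000101535.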
